A study of Mus musculus with 9 samples.

Results

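The feedback genes of the mitogen-activated protein (MAP) kinase pathway described here were Dusp1, Dusp4, Dusp5, Dusp6, Dusp10, Spry1, Spry2, Spry4, Spred1 and Spred2, which are 10 of the 18193 genes measured. They were chosen by name, and all 26 probe sets that the platform annotation maps to them were taken, out of 45037 tested; none of the 26 carried a second symbol. The cells were primary white adipocytes, fat cells differentiated in culture from the stromal-vascular (non-fat) cells of inguinal fat of C57BL6 male mice 30 to 35 days old, and the arrays were Affymetrix mouse arrays. There were 3 arrays of cells given PTH(1-34), 3 of cells given PTHrP(1-34), each at 100 ng/ml for 4 h on day 8 of differentiation, and 3 of control cells, for which the sources used here name no vehicle. Differentiation was the same in every group: a 2-day induction with insulin (5 µg/ml), rosiglitazone (1 µM), dexamethasone (1 µM) and isobutylmethylxanthine (0.5 µM), then insulin with rosiglitazone, and medium alone from day 6. Parathyroid hormone (PTH) and the related protein PTHrP bind the same receptor, and (1-34) names their amino-terminal fragments. Replicates are labelled biological, with no word on separate mice or cultures, so p-values measure the spread between these samples only.

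Growth factor receptors signal through Ras, Raf and MEK to the kinase ERK, and ERK induces genes whose products turn the cascade down again. Dual-specificity phosphatases (Dusp genes) remove phosphate from MAP kinases; Dusp6 is cytoplasmic and prefers ERK, Dusp5 and Dusp4 are nuclear, Dusp1 is an immediate early gene acting on p38, JNK and ERK, and Dusp10 prefers p38 and JNK. Sprouty (Spry) and Spred proteins act upstream, between receptor and Raf, and Spred proteins bring neurofibromin to the membrane to switch Ras off. The PTH receptor couples chiefly to cAMP, which in many cell types acts on Raf and on the transcription factor CREB; CREB binds the cAMP response element TGACGTCA.

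Promoters of 8 of the 10 genes were held in the RefSeq table (build GRCm38.p6), each running from 250 bases before to 50 bases after the transcription start; Dusp4 and Spry4 were not among them. Shown are Spry1, which fell most; Spred2, which was higher when the peptides were pooled; and Dusp1, a cAMP-responsive gene in many cells, whose signal is described further on. They lie at chr3:37639697-37639996 (plus strand), chr11:19924192-19924491 (plus strand) and chr17:26508423-26508722 (minus strand), and are written 5′ to 3′ along the gene. Capitals mark the cAMP response element TGACGTCA or its 5-base core TGACG, searched on both strands, so that a core inside the full element is counted too.
Spry1: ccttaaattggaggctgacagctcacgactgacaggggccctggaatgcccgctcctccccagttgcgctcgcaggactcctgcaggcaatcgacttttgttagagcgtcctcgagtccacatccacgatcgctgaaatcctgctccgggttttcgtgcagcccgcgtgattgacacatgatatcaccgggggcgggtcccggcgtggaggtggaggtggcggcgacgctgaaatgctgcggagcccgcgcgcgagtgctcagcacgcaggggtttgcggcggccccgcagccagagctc
Spred2: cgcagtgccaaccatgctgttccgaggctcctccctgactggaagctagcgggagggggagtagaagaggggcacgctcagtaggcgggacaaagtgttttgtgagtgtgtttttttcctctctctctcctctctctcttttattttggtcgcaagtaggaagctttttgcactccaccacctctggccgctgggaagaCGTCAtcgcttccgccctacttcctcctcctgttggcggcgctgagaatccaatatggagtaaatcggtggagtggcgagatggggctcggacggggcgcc
Dusp1: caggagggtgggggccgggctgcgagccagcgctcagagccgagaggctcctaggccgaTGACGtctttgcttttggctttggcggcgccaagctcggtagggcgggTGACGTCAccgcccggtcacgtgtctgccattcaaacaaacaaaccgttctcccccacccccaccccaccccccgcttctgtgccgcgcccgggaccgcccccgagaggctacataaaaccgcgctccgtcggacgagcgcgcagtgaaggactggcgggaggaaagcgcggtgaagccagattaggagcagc

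The full element occurred in the Dusp1 promoter, at positions -143 to -136 from the start, and in none of the 7 others; it was found in 1.79% of the 32851 mouse promoters of the same length. The core was found in 3 of the 8, Dusp1, Dusp5 (-55 to -51) and Spred2 (-51 to -47), against 20.8% of all promoters. The letters CCGGAA, which ETS-family factors downstream of ERK can bind, were found on either strand in 1 of the 8, Spry2, against 14.9% of all promoters. These are matches of letters in a short window and say nothing of binding.

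Among the 3 Sprouty genes, Spry1 fell and Spry4 rose with each peptide, and Spry2 did not pass. Spred2 passed the test when both peptides were set against control but with neither alone, and none of the 5 Dusp genes passed. Spry1 fell to 59.8% of the control mean with PTH and 60.6% with PTHrP, and Spry4 was at 127% and 126%. So 1 gene rose and 1 fell out of 10 with PTH (limma, adjusted p below 0.05), where 6.06% of all genes passed, 2.94% higher and 3.12% lower. With PTHrP also 1 rose and 1 fell, where 5.56% of all genes passed, 2.53% higher and 3.02% lower. With both peptides against control 2 rose and 1 fell, where 8.39% of all genes passed, 3.83% higher and 4.57% lower. The 3 comparisons use the same 3 control arrays, so their values are given side by side and not as separate support. The median log2 change of the 10 genes was 0.14 with PTH and 0.14 with PTHrP, where the median over all genes was -0.0026 and -0.0049.

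**Figure D1:**
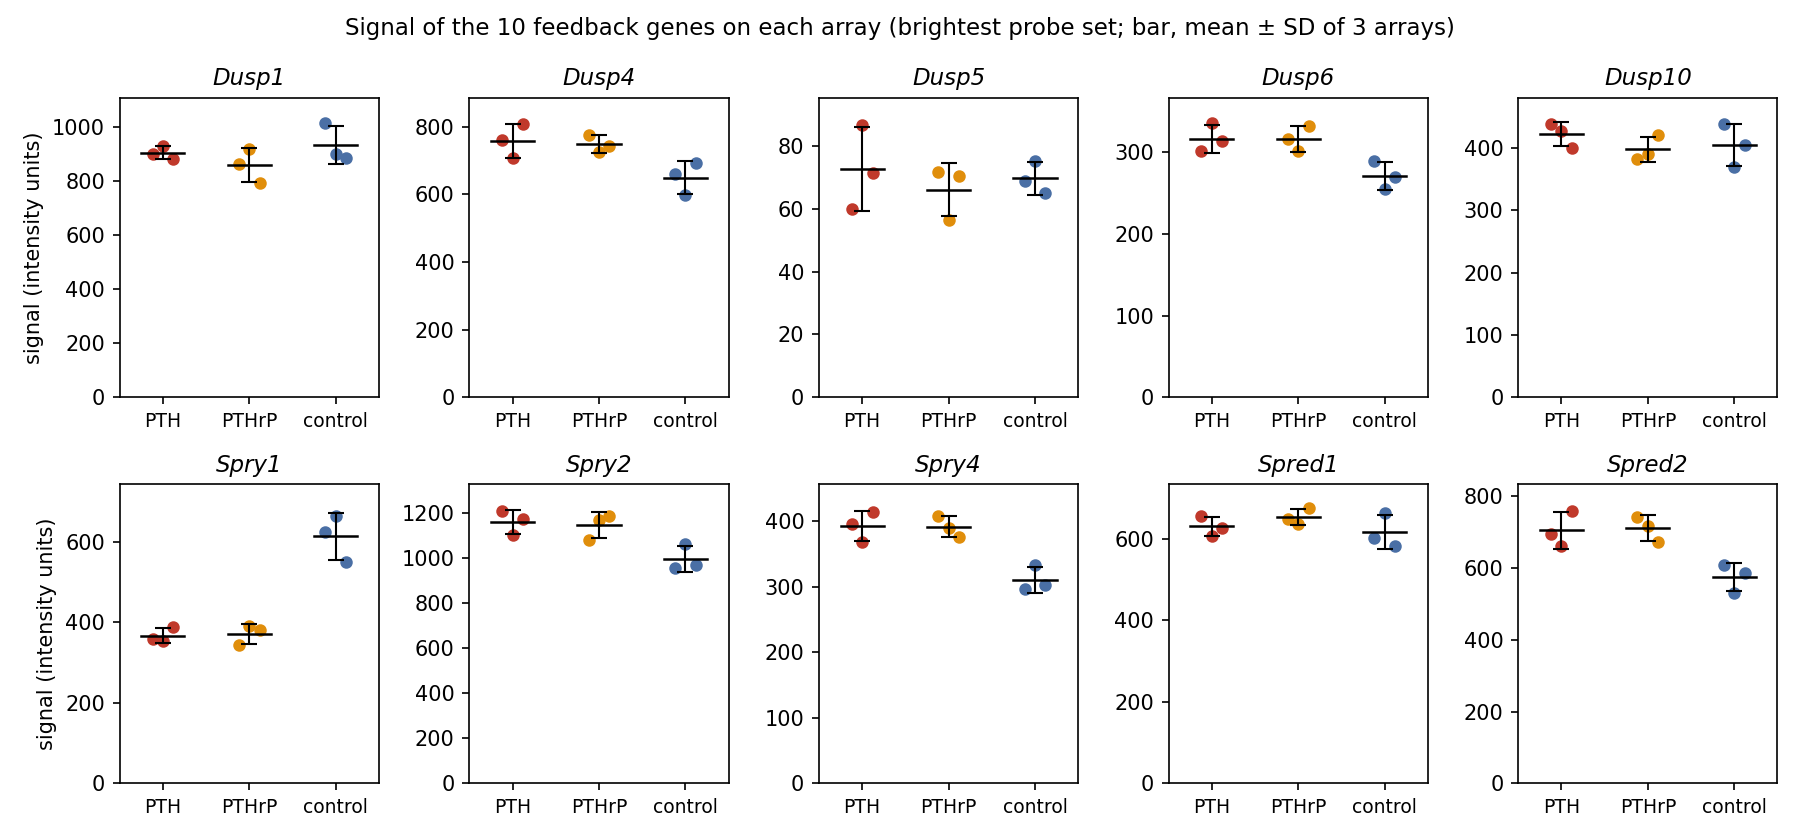
Signal in intensity units (vertical axis, from 0) of each of the 10 genes on the 9 arrays, by group (horizontal axis: PTH, PTHrP, control); points are arrays, and the bars give the mean and SD of 3 arrays. The 6 treated arrays of Spry1 sit between 344 and 391, below the controls at 551 to 665, and those of Spry4 and Spred2 sit above their controls.

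Signals are intensities of the gene's brightest probe set, in the deposited units, and log2 changes are of the signal with 16 added. Spry1 (probe set 1415874_at, Entrez gene 24063) codes for a Sprouty inhibitor of receptor tyrosine kinase signalling. Its signal was 359, 354 and 389 with PTH, 344, 391 and 381 with PTHrP, and 626, 665 and 551 in controls. All 6 treated arrays lay below all 3 controls. The log2 change was -0.71 with PTH (SE 0.08, limma adjusted p = 0.00231) and -0.70 with PTHrP (SE 0.08, adjusted p = 0.00264). This call held with each of the 9 arrays left out in turn, with log2 changes between -0.79 and -0.65 for PTH and -0.77 and -0.64 for PTHrP, and under every other alternative run. Spry1 has a single probe set on the array, so no second set was there to compare.

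Spry4 (1445669_at, Entrez gene 24066), another Sprouty inhibitor, had signals of 396, 368 and 414 with PTH, 408, 389 and 376 with PTHrP, and 296, 333 and 302 in controls. The groups did not overlap. The log2 change was 0.32 with each peptide (SE 0.07 each), with limma adjusted p = 0.0255 for PTH and 0.0291 for PTHrP. This call did not hold in every fit that left out 1 array, though the log2 change stayed between 0.29 and 0.37 with each peptide. Such a fit has fewer arrays, so a lost call does not by itself show that it rested on that array. With both peptides against control (log2 change 0.32, limma adjusted p = 0.0111) the call was lost without control replicate 3 (0.0501). For PTH it was lost without PTH replicate 1 (adjusted p = 0.0827), PTH replicate 3 (0.106), control replicate 1 (0.0780) or control replicate 3 (0.0804). For PTHrP it was lost without PTH replicate 1 (0.0530), any PTHrP replicate (0.0508 to 0.107), control replicate 1 (0.0866) or control replicate 3 (0.0895). Averaged over its 4 probe sets, Spry4 had a log2 change of 0.15 with PTH (adjusted p = 0.363) and 0.11 with PTHrP (0.531), and a fit of only the groups compared gave 0.0604 and 0.0743.

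The 3 other probe sets of Spry4 were dimmer. That with the next highest signal, 1440867_at, had 114, 89.0 and 112 with PTH, 90.0, 113 and 99.8 with PTHrP, and 80.9, 104 and 87.5 in controls, and the groups overlapped. The last pair, 1422021_at and 1422020_at, lay below 29.2, the dim level (the 40th percentile of all values), on every array, so their changes carry little information.

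Spry2 (1436584_at, Entrez gene 24064), the third Sprouty gene, had signals of 1207, 1099 and 1171 with PTH, 1080, 1166 and 1187 with PTHrP, and 954, 1059 and 969 in controls. Every treated array was above every control, but the gaps were small, and the log2 changes of 0.22 with PTH (SE 0.06, limma adjusted p = 0.0955) and 0.20 with PTHrP (SE 0.06, adjusted p = 0.128) did not pass. With both peptides against control the limma adjusted p was 0.0572. With PTH alone Spry2 passed with a pseudocount of 64, dim genes left out or a trended, robust variance. It passed with PTH in 0 of the 9 fits that leave out an array. Its other probe set, 1421656_at, had signals of 40.0 to 68.5 over the 9 arrays with overlapping groups.

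Spred2 (1434403_at, Entrez gene 114716) had signals of 694, 660 and 760 with PTH, 744, 716 and 673 with PTHrP, and 608, 531 and 586 in controls, without overlap. The log2 change was 0.29 with PTH (SE 0.07, limma adjusted p = 0.0661) and 0.30 with PTHrP (SE 0.07, adjusted p = 0.0587), and 0.29 with both peptides against control (SE 0.06, adjusted p = 0.0280). The last call was lost without PTH replicate 1 (0.0559), PTH replicate 3 (0.0568), PTHrP replicate 1 (0.0625), PTHrP replicate 2 (0.0568), control replicate 2 (0.107) or control replicate 3 (0.0766), and with the mean of its 5 probe sets (log2 change 0.12, adjusted p = 0.525). With PTH alone Spred2 passed with a pseudocount of 64, dim genes left out or a trended, robust variance. It passed with PTH in 0 of the 9 fits that leave out an array. A second probe set above the dim level, 1436892_at, had signals of 97.5, 83.6 and 84.8 with PTH, 85.3, 80.3 and 79.8 with PTHrP, and 75.7, 74.9 and 63.4 in controls. Its groups did not overlap either, and its log2 change with both peptides, 0.21, did not pass among all probe sets (adjusted p = 0.156). The other 3 probe sets of Spred2 had mean signals below the dim level.

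Spred1 (1423160_at, Entrez gene 114715) had signals of 656, 608 and 627 with PTH, 649, 637 and 674 with PTHrP, and 602, 663 and 583 in controls, with overlapping groups. Its log2 change was 0.03 with PTH (95% interval -0.10 to 0.17) and 0.08 with PTHrP (-0.05 to 0.22). It had 8 probe sets, 6 of them above the dim level, and 0 passed in any comparison. One of those 6, 1423162_s_at, had all treated arrays (184 to 223) above all controls (170 to 178), while the brightest did not. With both peptides against control 6 of the 8 probe sets were higher and 2 lower. Whether the probe sets differed from each other was not tested.

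**Figure D2:**
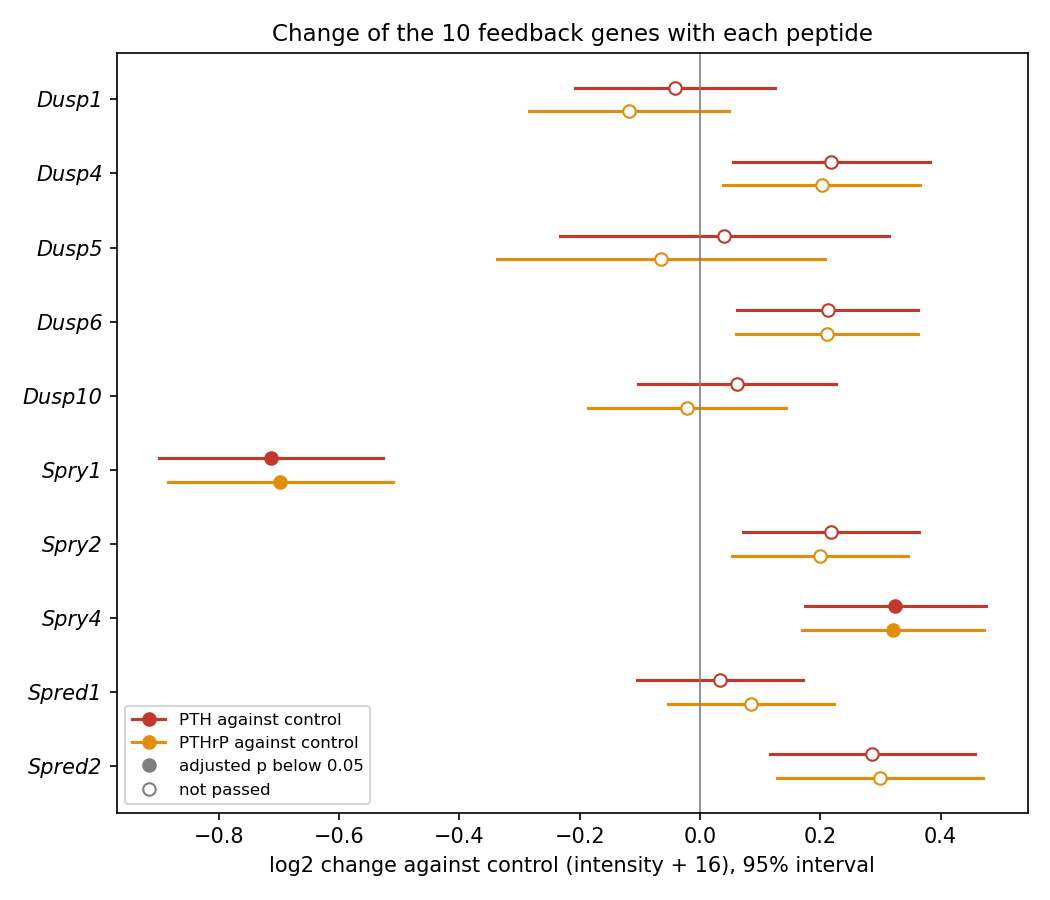
Log2 change against control of signal + 16 (horizontal axis) with its 95% interval for each of the 10 genes (vertical axis), PTH above PTHrP; filled points have an adjusted p below 0.05 over all genes. Spry1 lies near -0.7 and Spry4 near 0.32 with both peptides, and the other genes lie between -0.12 and 0.30.

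The ERK-directed phosphatase genes Dusp4 and Dusp6 had all treated arrays above all controls without passing the test. Dusp6 (1415834_at, Entrez gene 67603) had signals of 301, 335 and 314 with PTH, 316, 301 and 332 with PTHrP, and 289, 255 and 270 in controls. Dusp4 (1428834_at, Entrez gene 319520) had 760, 707 and 808 with PTH, 777, 725 and 743 with PTHrP, and 660, 597 and 691 in controls. The gap between the groups was small for each gene. The log2 change of Dusp6 was 0.21 with each peptide (SE 0.07, limma adjusted p = 0.112 for PTH and 0.119 for PTHrP), and that of Dusp4 was 0.22 with PTH (adjusted p = 0.132) and 0.20 with PTHrP (adjusted p = 0.170), so neither passed. With both peptides against control the adjusted p was 0.0605 for Dusp6 and 0.0815 for Dusp4. Both passed there when dim genes were left out (0.0290 and 0.0415), with a pseudocount of 64 (0.0304 and 0.0393) and with a trended, robust variance (0.0239 and 0.0160). Each passed there in 0 of the 9 fits that leave out an array, with adjusted p up to 0.190 and 0.236.

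Dusp5, Dusp1 and Dusp10 did not pass, and their groups overlapped. Dusp1 (1448830_at, Entrez gene 19252), whose promoter holds the full cAMP response element shown above, had signals of 901, 928 and 881 with PTH, 861, 917 and 793 with PTHrP, and 1013, 898 and 885 in controls. Its log2 change was -0.04 with PTH (95% interval -0.21 to 0.12) and -0.12 with PTHrP (-0.28 to 0.05). Cells were taken at 4 h only. Dusp10 (1417164_at, Entrez gene 63953) had 438, 427 and 401 with PTH, 382, 390 and 421 with PTHrP, and 438, 370 and 405 in controls. Its log2 change was 0.06 with PTH (-0.10 to 0.23) and -0.02 with PTHrP (-0.19 to 0.14). Its other probe set above the dim level, 1417163_at, had 49.8, 49.3 and 43.9 with PTH, 46.9, 41.0 and 45.2 with PTHrP, and 46.6, 28.9 and 35.8 in controls, with overlapping groups. Among all probe sets its log2 change of 0.27 with PTH (0.01 to 0.53) and 0.20 with PTHrP (-0.07 to 0.46) did not pass (limma adjusted p = 0.315 and 0.521), and the mean of the probe sets of Dusp10 gave 0.17 and 0.09. Dusp5 (1437199_at, Entrez gene 240672), a nuclear ERK phosphatase, was the dimmest, with 60.0, 86.7 and 71.3 with PTH, 71.6, 56.4 and 70.4 with PTHrP, and 68.9, 75.1 and 65.0 in controls. Its 95% interval was the widest of the 10, -0.23 to 0.31 on the log2 scale for PTH.

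Counted by overlap, 5 of the 10 genes (Dusp4, Dusp6, Spry2, Spry4 and Spred2) had all 3 PTH arrays above all 3 controls, where 12.8% of all genes did, and 1 (Spry1) had them all below, where 13.2% did. With PTHrP the same 5 genes lay above, where 10.4% of all genes did, and Spry1 below, where 12% did. In the fit over all probe sets, 1 of the 26 passed with PTH (Spry1), where 2.7% of all probe sets passed, and 1 with PTHrP (Spry1), where 2.39% did. With both peptides 2 of the 26 passed (Spry1 and 1445669_at of Spry4), where 4.13% did. Of the 26, 19 had a mean signal above the dim level. By their brightest probe sets all 10 genes were above it, while the shares of all genes given here include dim genes. The 10 genes and all genes are therefore not alike in signal.

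**Figure D3:**
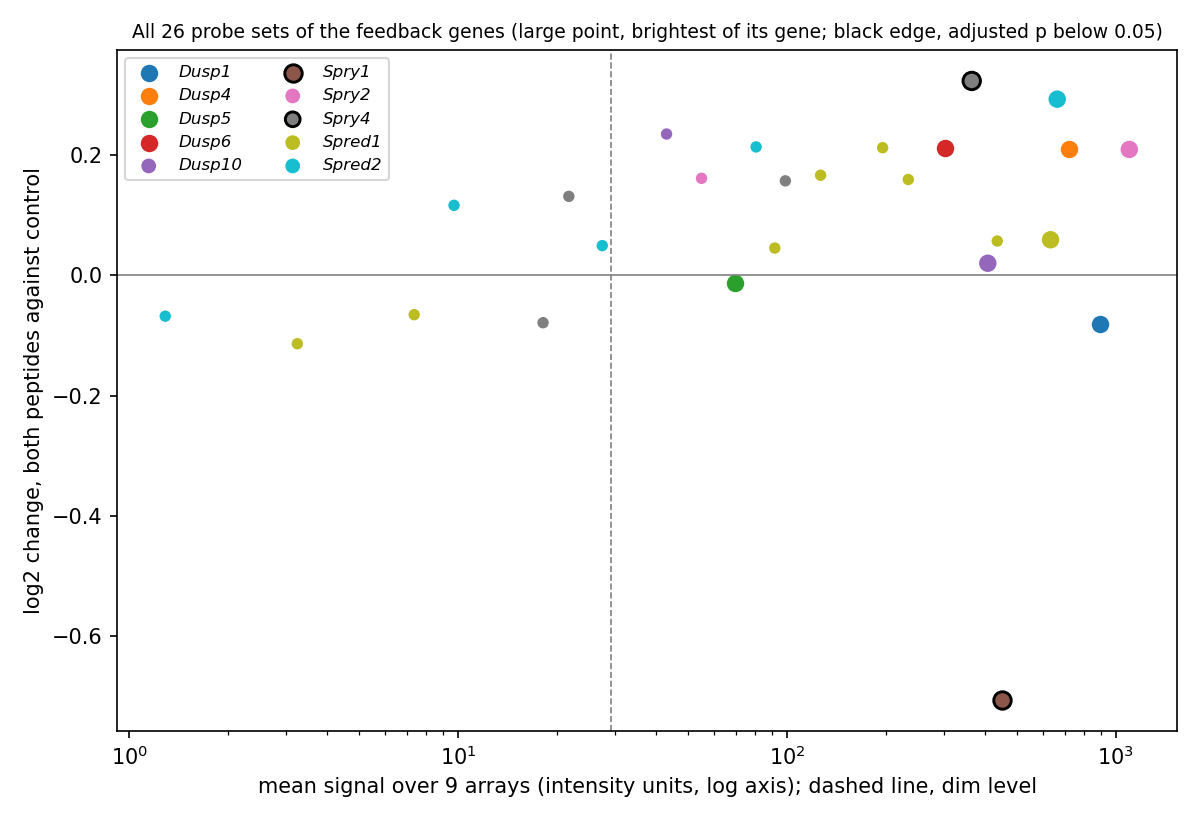
Log2 change with both peptides against control (vertical axis) against the mean signal over 9 arrays (horizontal log axis, intensity units) for the 26 probe sets, coloured by gene; large points are the brightest set of a gene, black edges mark an adjusted p below 0.05 over all probe sets, and the dashed line is the dim level of 29.2. Spry1 stands alone at -0.71, and 19 of the 26 sets lie above 0.

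**Figure D4:**
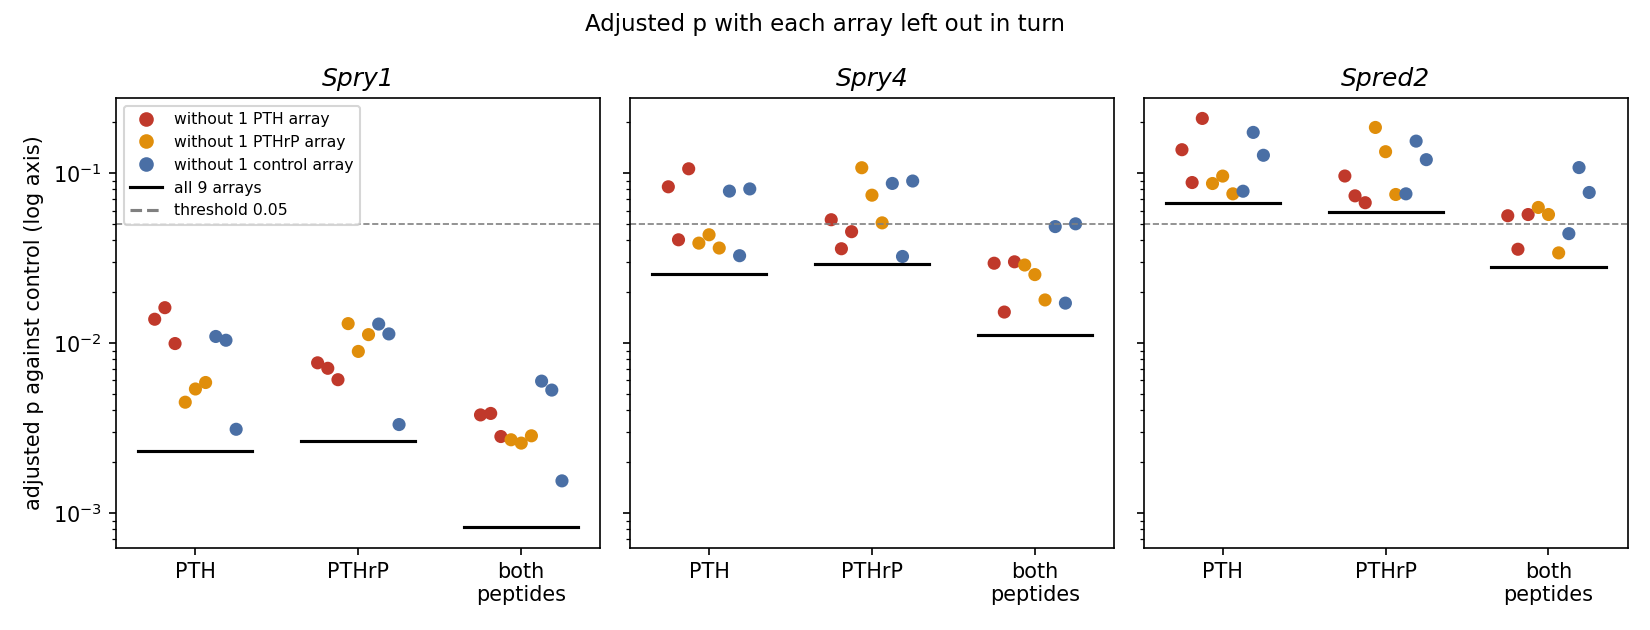
Adjusted p (vertical log axis) of Spry1, Spry4 and Spred2 against control for PTH, PTHrP and both peptides; points leave out 1 array each, coloured by its group, the black line is the value with all 9 arrays and the dashed line is 0.05. The points of Spry1 stay below the line at 0.0161 or less, while those of Spry4 and Spred2 lie on either side of it for both peptides together.

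PTH and PTHrP were not told apart by any of the 10 genes. The difference PTH minus PTHrP lay between -0.05 (Spred1) and 0.11 (Dusp5) on the log2 scale, and 0 of the 10 passed (limma adjusted p 0.999 or above; 0 at an unadjusted p below 0.05). Across all genes 0% passed, also among all probe sets, and 731 genes (4.02% of all) had an unadjusted p below 0.05. With a pseudocount of 1, 2 genes passed, and without PTHrP replicate 1, 1 gene did. For Spry1 the difference was -0.02 with a 95% interval of -0.20 to 0.17, and for Spry4 it was 0.00 with an interval of -0.15 to 0.15. Over the 10 genes the lowest bound was -0.20 (Spry1) and the highest 0.38 (Dusp5), the dimmest gene having the widest interval.

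Other measures of the arrays were compared between the groups, and some of them moved with treatment. Actin controls, which report RNA integrity as a 3'/5' ratio, gave 1.59 to 1.65 with PTH, 1.52 to 1.61 with PTHrP and 1.45 to 1.51 in controls. The same ratio of the Gapdh controls was 0.9802 to 0.9885 with PTH, 0.9307 to 0.9753 with PTHrP and 0.9495 to 0.9854 in controls. By Gapdh the control arrays overlapped those of each peptide, so the 2 ratios did not give the same picture of RNA integrity. The culture kept strong adipocyte markers (8 of 10 measured, all 8 above the dim level), with Fabp4, a fatty acid carrier gene, at 18203 ± 356 with PTH, 17680.2 ± 554 with PTHrP and 17944 ± 386 in controls (SD, n = 3), and their summed level was 68041 to 71553 with PTH, 65795 to 69785 with PTHrP and 66469.8 to 68998 in controls. Of these 8 markers, 8 were higher and 0 lower with PTH, and 4 were higher and 4 lower with PTHrP. With each peptide 1 passed, the lipid droplet gene Cidec, which rose by 0.28 with PTH and 0.31 with PTHrP (limma adjusted p = 0.0375 and 0.0304). Summed smooth muscle and pericyte markers (7 of 7 above the dim level) were 21041 to 21282 with PTH, 20072 to 21288 with PTHrP and 22129 to 22733 in controls, and 5 of the 7 were lower and 2 higher with each peptide. Of the 7, 1 passed: Myh11, a smooth muscle myosin gene, fell by 0.38 with PTH and by 0.45 with PTHrP (adjusted p = 0.0227 and 0.0109), while Rgs5 had 0.23 and 0.21 (0.281 and 0.329). Summed fibroblast and preadipocyte markers (8 of 9 measured above the dim level) were 22666 to 22953 with PTH, 22191 to 24336 with PTHrP and 23358.5 to 24434 in controls. Of the 9, 2 were higher and 7 lower with PTH, and 4 were higher and 5 lower with PTHrP. The matrix gene Lum, 1 of the 9, fell by 0.37 with PTH (limma adjusted p = 0.0135) and had -0.17 with PTHrP (0.211). Endothelial markers summed to 251 to 308 with PTH, 274 to 355 with PTHrP and 314 to 368 in controls, with Pecam1 below the dim level and 3 of 8 above it. Of the 8, 3 were higher and 5 lower with each peptide. Macrophage markers summed to 1133 to 1296 with PTH, 1117 to 1249 with PTHrP and 1064 to 1162 in controls. Csf1r alone averaged 603 with PTH, 599 with PTHrP and 491 in controls, as all these sums are weighted towards their brightest genes. Ptprc was below the dim level, and 5 of 9 were above it. Of the 9, 4 were higher and 5 lower with PTH, and 3 were higher and 6 lower with PTHrP. Csf1r, among the higher ones, had 0.29 with PTH and 0.28 with PTHrP (0.0645 and 0.0753) and passed with both peptides (0.28, 0.0320). None of the markers was at 0. The part of these measures in the changes of Spry1 and Spry4 was not tested; in bulk RNA, fewer cells of a type and less RNA per cell cannot be told apart.

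Relatives of the 10 genes were measured too: 15 genes for other Dusp, Sprouty and Spred proteins and for other brakes on receptor signalling. With each peptide 2 rose, 0 fell and 13 did not pass, where 6.06% of all genes passed with PTH and 5.56% with PTHrP. Spry3, with a single probe set, the fourth Sprouty gene, had signals of 121, 133 and 136 with PTH, 133, 145 and 141 with PTHrP, and 85.3, 73.1 and 69.0 in controls. All treated arrays lay above all controls, and the log2 change was 0.67 with PTH (SE 0.08, limma adjusted p = 0.00226) and 0.77 with PTHrP (SE 0.08, adjusted p = 0.00113). Its signal is low: with a pseudocount of 64 in place of 16 the log2 change was 0.47 with PTH and 0.54 with PTHrP. Socs3, an inhibitor of cytokine receptors, rose by 0.30 with PTH (adjusted p = 0.0308) and 0.36 with PTHrP (0.0153), and kept its call in 3 of the 9 fits that leave out an array for PTH and in 7 of the 9 for PTHrP.

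Genes that ERK and other immediate early signals induce went both ways. With PTH 3 of the 21 measured (of 22 listed) rose and 2 fell, where 6.06% of all genes passed. With PTHrP 2 rose and 2 fell, where 5.56% of all genes passed. The others did not pass, and the median log2 change was -0.03 and -0.06. Fosl1, which codes for the AP-1 factor FRA1, had signals of 520, 600 and 560 with PTH, 537, 675 and 544 with PTHrP, and 315, 301 and 268 in controls. It rose by 0.89 with PTH (SE 0.10, limma adjusted p = 0.00238) and 0.95 with PTHrP (SE 0.10, adjusted p = 0.00166). Egr3, an early growth response transcription factor gene, had 115, 125 and 130 with PTH, 104, 123 and 102 with PTHrP, and 214, 177 and 192 in controls. It fell by 0.59 with PTH (adjusted p = 0.00685) and by 0.74 with PTHrP (adjusted p = 0.00278), but the PTHrP call was lost with the mean of its probe sets (log2 change -0.39, adjusted p = 0.111). The related gene Egr1 fell by 0.29 and 0.28 (adjusted p = 0.0213 and 0.0254). Phlda1 rose by 0.32 and 0.28 (0.0126 and 0.0259), and Maff, a small Maf factor gene, rose by 0.33 with PTH (0.0298) and had 0.28 with PTHrP (0.0569); its difference between the peptides did not pass.

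The list from Ras to ERK with adaptors named 30 genes, 23 of them measured; 1 rose and 1 fell with each peptide, and 21 missed the threshold, a share near that of all genes. Ksr1, a scaffold that brings Raf, MEK and ERK together, averaged 375 ± 2.43 with PTH, 383 ± 17.8 with PTHrP and 292 ± 18.3 in controls (SD, n = 3), log2 changes of 0.35 and 0.37 (limma adjusted p = 0.0118 and 0.00885). Gab1, a docking protein for receptor tyrosine kinases, averaged 203 ± 3.00 with PTH, 209 ± 12.7 with PTHrP and 269 ± 21.4 in controls, log2 changes of -0.37 and -0.34 (adjusted p = 0.0154 and 0.0250). With the mean of its probe sets Ksr1 did not pass (0.18, adjusted p = 0.338, and 0.28, adjusted p = 0.126). In the p38 and JNK cascades (17 of 18 listed genes measured) 0 genes passed with PTH and 1 fell with PTHrP, the p38 kinase gene Mapk12 (-0.29, adjusted p = 0.0400; -0.26 with PTH, adjusted p = 0.0562); the mean of its probe sets gave -0.14 with PTHrP (adjusted p = 0.319). Map2k4, a kinase upstream of JNK, had log2 changes of 0.23 with each peptide that did not pass (0.0712 and 0.0702). It passed with both peptides against control (0.23, limma adjusted p = 0.0326), a call kept in 2 of the 9 fits that leave out an array.

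Ligands and receptors that feed the cascade were listed too. Among 23 measured growth factor ligand genes, of 24 listed, 4 rose and 1 fell with PTH, and 4 rose and 0 fell with PTHrP. Of all genes, 6.06% passed with PTH and 5.56% with PTHrP. Fgf10, a fibroblast growth factor that promotes fat cell formation, had signals of 499, 526 and 524 with PTH, 509, 474 and 486 with PTHrP, and 307, 333 and 328 in controls, and rose by 0.65 (SE 0.05, limma adjusted p = 0.000411) and 0.58 (SE 0.05, adjusted p = 0.000711). Hgf, the ligand of the receptor Met, rose by 0.49 and 0.46 (adjusted p = 0.0307 and 0.0411), Nrg4, a ligand of ErbB receptors, by 0.36 and 0.29 (0.0130 and 0.0361), and Igf1 by 0.21 and 0.22 (0.0329 and 0.0302). Pdgfc fell by 0.31 with PTH (0.0431). Of the 9 fits that each leave out an array, the Igf1 call held in 2 with PTH and 0 with PTHrP, that of Hgf in 3 and 1, that of Nrg4 in 7 and 1, and that of Pdgfc with PTH in 1. Among 22 genes for receptor tyrosine kinases and co-receptors 2 rose and 1 fell with PTH, and 1 rose and 1 fell with PTHrP. The shares of all genes were again 6.06% and 5.56%. Pdgfrb, a platelet-derived growth factor receptor gene, averaged 2999 ± 41.3 with PTH, 2929 ± 162 with PTHrP and 3723 ± 56.8 in controls, log2 changes of -0.31 and -0.35 (adjusted p = 0.0111 and 0.00719). Klb, a fibroblast growth factor co-receptor gene, rose by 0.30 with PTH (0.0167) and had 0.23 with PTHrP (0.0519). Ntrk2 rose by 0.44 and 0.54 (0.0247 and 0.0103), but the mean of its 8 probe sets gave 0.03 (adjusted p = 0.901) and -0.001 (0.998). Erbb2 had log2 changes of -0.35 and -0.42 that did not pass (0.213 and 0.139).

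Many of these calls on genes outside the 10 were lost when 1 array was left out. A fit without an array has fewer arrays, so a lost call does not by itself show that it rested on that array. Of the 17 calls with PTH, 4 remained on leaving out PTH replicate 2 or 3, 9 on leaving out PTH replicate 1, 10 on leaving out control replicate 2 or 3, and 12 on leaving out control replicate 1. Leaving out a PTHrP array kept 14 (replicate 1), 16 (replicate 2) or 17 (replicate 3). Those of Spry3, Fosl1, Egr3 and Fgf10 held with each of the 9 arrays left out. Of the 15 calls with PTHrP, leaving out a PTHrP array kept 7 (replicate 1), 8 (replicate 2) or 11 (replicate 3), leaving out a PTH array kept 12, 11 or 9, and leaving out a control array kept 12, 8 or 8. The calls that held with each array left out were those of Spry3, Fosl1, Egr3, Fgf10, Ksr1, Pdgfrb and Ntrk2.

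**Figure D5:**
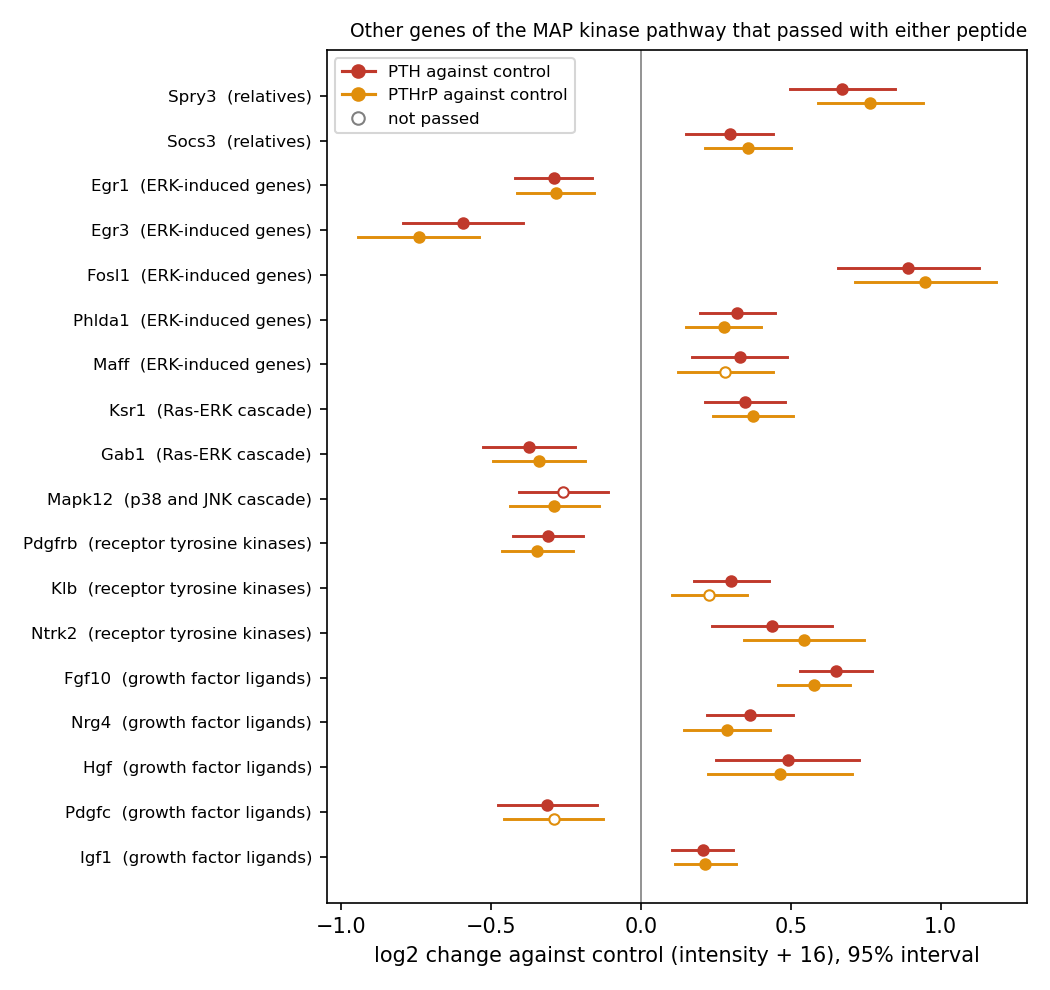
Log2 change against control of signal + 16 (horizontal axis) with its 95% interval for the genes of the other pathway lists that passed with PTH or PTHrP (vertical axis, with the list in parentheses; "relatives" are other feedback genes), PTH above PTHrP; open points did not pass. Fosl1 (0.89 and 0.95), Spry3 (0.67 and 0.77) and Fgf10 (0.65 and 0.58) rose and Egr3 (-0.59 and -0.74) fell.

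Patterns over the 9 arrays were set against those of 12802 other genes with a mean signal above the dim level, for Spry1 and Spry4, the members with the largest change that passed with both peptides. The genes most like Spry1 were Atxn1 (Pearson r = 0.992 of log2 values over 9 arrays), Vgll3 (0.987) and Cnn2 (0.987). Their log2 changes were -0.67, -0.54 and -0.44 with PTH and -0.63, -0.55 and -0.47 with PTHrP. The genes most like Spry4 were Bbx (r = 0.982), Arel1 (0.978) and C2cd2l (0.976), with log2 changes of 0.22, 0.24 and 0.16 with PTH and 0.19, 0.23 and 0.19 with PTHrP. These are descriptions: the arrays fall into treated and control ones, so any gene that follows treatment has a high r, and the genes share the arrays.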

How the data were processed

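RNA of 9 samples was labelled as biotinylated cRNA and hybridised to 1-colour Affymetrix arrays, per the labels' protocols. The authors deposited a signal intensity for each of 45101 probe sets; the sources used here do not say how it was summarised, background-corrected and scaled. That the intensities are linear was taken from their range (highest value per array 17113 to 18614; median 48.2 to 52.6), and log2 changes are fold changes only if so. The number of arrays limits the precision.

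Control probe sets (64) were left out. Probe sets were named through the platform annotation: 34945 had 1 symbol, 932 several and 9160 none. Each gene was represented by its probe set with the highest mean log2 value. Values were log2(intensity + 16), fitted with limma 3.58.1 (statmod 1.5.0) in R 4.3.3 with a mean for each group and tested two-sided, with Benjamini-Hochberg adjustment over the 18193 genes, or over 45037 probe sets in the fit of every probe set. Log2 changes are peptide minus control, with SE and 95% intervals from the moderated variance and n = 3 arrays per group. Figures used matplotlib 3.10.9 in Python 3.11.15. The steps were tested on simulated data.

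The 10 genes and the other lists were chosen with earlier results of these data known. Named genes were the 10, the genes of the other lists that passed with either peptide or had the 2 largest changes of their list, and the 3 genes most like each of 2 members. The labels give no shared litter, batch or day for a replicate number, so the main fit had no block. Deviations from group means of same-numbered arrays correlated at -0.25 to 0.19, and those of other pairs at -0.25 to 0.32. With 3 arrays per group these overlapping ranges cannot tell whether the numbers pair the arrays. Alternatives were quantile normalization, centring on the 75th percentile, pseudocounts of 1 and 64, leaving out dim genes, the mean of probe sets, every probe set, a trended and robust variance, the replicate block, fitting only the groups compared, a threshold of 0.01 and leaving out each array.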

Additional observations from a re-analysis of the deposited data

How the results depend on the processing

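The count of the 10 genes that passed was 2 with PTH, 2 with PTHrP and 3 with both peptides against control, and 0 for PTH against PTHrP, which stayed 0 under every alternative. With PTH the count became 4 with a pseudocount of 64 or with dim genes left out, 5 with the trended and robust variance, and 1 (Spry1) with the mean of probe sets, every probe set, the replicate block, the 0.01 threshold or only the groups compared in the fit. The block ended the Spry4 call with PTH (adjusted p = 0.0850) and PTHrP (0.0968). With PTHrP the count became 3 with 75th percentile centring, a pseudocount of 64 or dim genes left out, 4 with the trended and robust variance and 1 (Spry1) with the mean of probe sets, every probe set, the replicate block, the 0.01 threshold or only the groups compared. With both peptides it became 4 with quantile normalization or 75th percentile centring, 6 with a pseudocount of 64, dim genes left out or the trended and robust variance, and 1 with the mean of probe sets or the 0.01 threshold; the replicate block gave 2. Leaving out 1 array gave 1 to 2 with PTH, 1 to 2 with PTHrP and 1 to 3 with both. Over all genes 1103 passed with PTH, 1011 with PTHrP and 1527 with both. These totals moved too: a pseudocount of 64 gave 1530, 1463 and 2023, and leaving out dim genes 1597, 1463 and 2079. The mean of probe sets gave 815, 726 and 1109. Centring on the 75th percentile gave 1048 with PTHrP and 1573 with both, and quantile normalization 1579 with both. The block gave 671, 572 and 1032, the trended and robust variance 1741, 1647 and 2212, and the 0.01 threshold 414, 396 and 658; only the groups compared gave 454 with PTHrP, and leaving out 1 array gave 468 to 1047 with PTH, 512 to 769 with PTHrP and 860 to 1421 with both. Fewer genes were tested where dim genes were left out, and the 0.01 threshold is a stricter cut on the same main fit. Leaving out an array, or fitting only the groups compared, used fewer arrays. The part of this in those shifts, and the cause of the other shifts, was not tested.

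Spry1 kept its direction and its call throughout. Changes of sign occurred only for members near 0 and for Ntrk2, none of them calls after the change. With PTHrP, Dusp10 was 0.088 and Ntrk2 -0.0010 with the mean of probe sets. With 1 array left out, Dusp1 ranged over -0.077 to 0.019, Dusp5 over -0.071 to 0.15 and Spred1 over -0.0042 to 0.086 with PTH; Dusp5 over -0.11 to 0.024 and Dusp10 over -0.081 to 0.036 with PTHrP; and Dusp5 over -0.068 to 0.041 and Dusp10 over -0.040 to 0.077 with both peptides.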
